A study of Mus musculus with 24 samples.

Results

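Amino acids cross the hepatocyte membrane on carriers of several solute carrier families, and the liver transcripts of 64 genes of the families SLC1, SLC3, SLC6, SLC7, SLC36, SLC38 and SLC43 were compared between C57Bl6 mice and 2 lines that carry a transgene for the transcription factor SREBP-1a. The genes were chosen by their symbol in the array annotation, which had to match one of these 7 family names followed by a number, and each gene is represented by its probe set of highest mean over all arrays. They make up 64 of the 19938 genes measured by a probe set with 1 symbol, and 66 of 35556 probe sets belong to them. The rule reads symbols and no measured difference, although earlier results of these data were known when the families were picked. Liver RNA came from male litter mates 24 weeks old, with 1 array per mouse and 8 mice in each of 3 genotypes. C57Bl6 mice served as controls. In alb-SREBP-1a mice the albumin promoter drives the HA-tagged N-terminal part of human SREBP-1a, which is its active form, and alb-SREBP-1a∆P mice carry the same construct with its MAPK phosphorylation sites mutated. Since that promoter acts in hepatocytes, whole liver RNA also holds transcripts of cells without the transgene. The arrays carry mouse probe sets, and the human transgene itself was not checked here.

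Hepatocytes take up amino acids from the portal blood for protein synthesis, urea formation and gluconeogenesis, and they release glutamine, glutathione and plasma proteins. Sodium-coupled carriers of the SLC38, SLC6 and SLC1 families move substrates inward against their gradient, while SLC7 light chains mostly exchange one amino acid for another and reach the membrane only when bound to an SLC3 heavy chain. SREBP-1a is a transcription factor that switches on genes of cholesterol and fatty acid synthesis. Not every gene that the symbols caught is a plasma membrane amino acid carrier: Slc38a9, Slc38a7 and Slc7a14 encode lysosomal proteins, Slc36a1 acts at lysosomes as well as at the cell surface, several SLC6 members carry amines or creatine, and Slc7a6os and Slc6a19os are opposite-strand genes that encode no carrier.

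All values are log2 signals, for which a difference of 1 is a doubling, and signals were compared only between mice for the same probe set. Hepatocyte markers were bright on each of the 24 arrays, with a mean log2 level over 8 markers of 13.6 to 13.8 in C57Bl6, 13.4 to 13.7 in alb-SREBP-1a mice and 13.4 to 13.6 in alb-SREBP-1a∆P. The alb-SREBP-1a∆P replicate 4 stood apart from its group on the first principal component, which held 39.3% of the variance, with a score of 15.7 against 55.0 to 90.3 for the other alb-SREBP-1a∆P arrays. The median of all probe sets was 5.55 to 5.65 on the C57Bl6 arrays, 5.54 to 5.65 on the alb-SREBP-1a arrays and 5.69 to 5.81 on the alb-SREBP-1a∆P arrays. The deposited values leave this shift in place, and another scaling between arrays moved the median fold change of all probe sets between alb-SREBP-1a∆P and C57Bl6 mice by -0.14 with quantile normalization, -0.16 with median centring and -0.11 with cyclic loess. Calls below refer to the deposited values unless a scaling is named. In whole liver, fewer cells of a type and less RNA per cell cannot be told apart.

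In alb-SREBP-1a liver few transporter transcripts moved: 4 of 64 rose (6.77% of all probe sets rose), 7 fell (3.98% of all probe sets fell) and 53 did not pass an adjusted p of 0.05 in limma. The list median was -0.03 against 0.01 for all probe sets. In alb-SREBP-1a∆P liver 21 rose (27% of all probe sets), 12 fell (20.2%) and 31 did not pass, with a median of 0.19 against 0.11. Between the lines, 19 were higher (22.8% of all probe sets) and 8 lower (21.4%) in alb-SREBP-1a∆P, with a median of 0.14 against 0.08 and 37 that did not pass. As shares of the 64 genes, rises and falls were 6.25% and 10.9% in alb-SREBP-1a mice, 32.8% and 18.8% in alb-SREBP-1a∆P mice and 29.7% and 12.5% between the lines. The comparisons with C57Bl6 share the same 8 control arrays, and the comparison of the lines uses the arrays of both, so the 3 sets of values are not independent. Of the genes called in alb-SREBP-1a, Slc6a9, Slc7a8 and Slc6a16 also rose in alb-SREBP-1a∆P, and Slc38a4, Slc6a13, Slc6a12, Slc3a1, Slc38a10, Slc38a6 and, on the brighter of its probe sets only, Slc38a9 also fell there. Slc36a1 was called in alb-SREBP-1a and did not pass in alb-SREBP-1a∆P with the deposited values. A further 18 rose and 5 fell in alb-SREBP-1a∆P without a call in alb-SREBP-1a, a difference in calls that is no test of the lines against each other.

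The direction of a transporter's change in alb-SREBP-1a∆P went with the brightness of its probe set. Of the 31 transporter genes below the median level of 5.61, 16 rose against C57Bl6 (38.8% of all such dim probe sets) and 0 fell (2.94%). Among the 33 genes above it, 5 rose (15.1%) and 12 fell (37.5%). Over all probe sets, split into 10 equal bins of brightness, the median fold change ran from 0.37 in the dimmest bin to -0.29 in bin 9 and -0.20 in the brightest. The comparison of the lines had the same shape, with 14 of the 31 dim transporter genes higher (33% of all dim probe sets) and 0 lower (2.63%), and with 5 of the 33 bright ones higher (12.6%) and 8 lower (40.2%). In alb-SREBP-1a the brighter genes gave 3 rises (9.94%) and 7 falls (7.1%) and the dimmer ones 1 rise (3.61%) and 0 falls (0.861%). The part of brightness in these results was not tested.

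**Figure D1:**
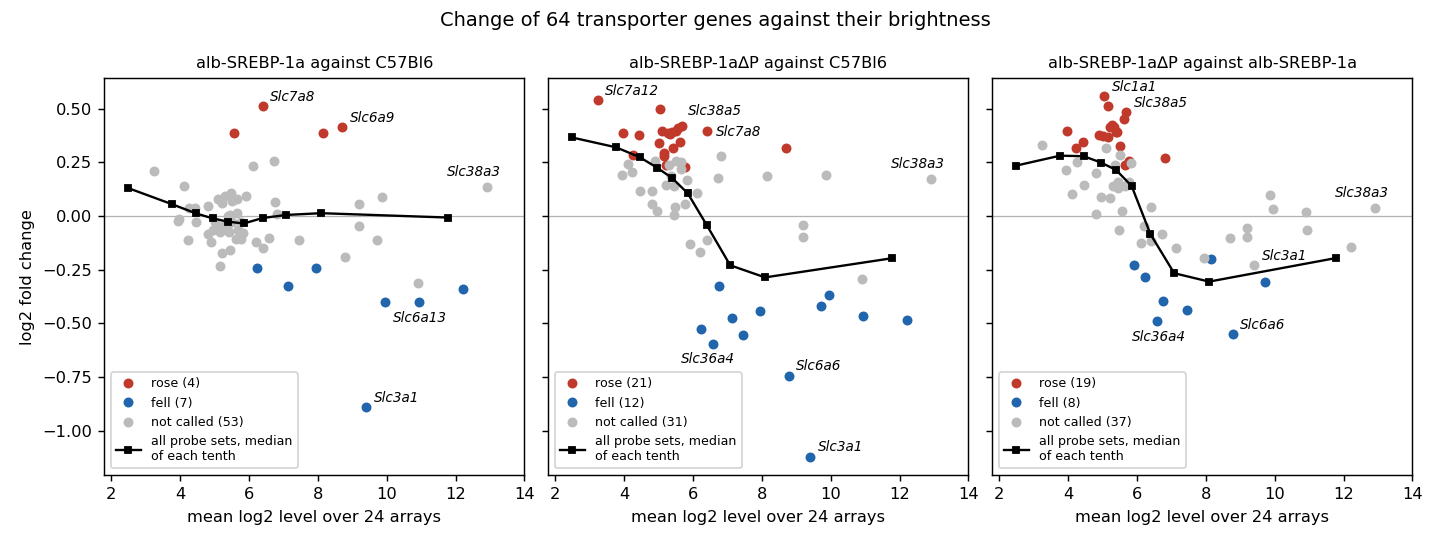
Log2 fold change (vertical axis) of the 64 transporter genes against the mean log2 level of their probe sets over 24 arrays (horizontal axis), 1 point per gene, coloured by call in limma, with black squares for the median of all probe sets in each of 10 bins of brightness. In the panels with alb-SREBP-1a∆P the genes that rose lie mostly at levels below 6 and those that fell above 6, along the black line, while in alb-SREBP-1a against C57Bl6 the line stays between -0.03 and 0.13 and Slc3a1 lies far below it at -0.89.

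Most of the rises in alb-SREBP-1a∆P were lost under another scaling. Against C57Bl6 the rises numbered 21 as deposited, 6 after quantile normalization, 4 after median centring and 8 after cyclic loess, and 1 gene, Slc38a5, rose under the deposited values and all 3 scalings. The falls numbered 12 as deposited and 13, 16 and 7 under the same scalings, and Slc36a4, Slc38a4, Slc38a6, Slc38a7, Slc3a1, Slc6a13 and Slc6a6 fell under each. The share of higher calls was 63.6% as deposited and 31.6%, 20.0% and 53.3% with quantile normalization, median centring and cyclic loess. Between the lines it was 70.4% as deposited and 37.5%, 25.0% and 44.4% in the same order, and the genes called under all of them were Slc38a5, which rose, and Slc36a4, Slc38a6, Slc6a6, Slc7a7 and Slc7a6os, which fell. In alb-SREBP-1a against C57Bl6 all 4 rises and 5 of 7 falls held under each scaling, and the share of higher calls was 36.4% as deposited and 36.4% to 44.4% otherwise. Scaling also added calls. In alb-SREBP-1a∆P against C57Bl6, 9 genes without a call as deposited passed under at least 1 scaling: Slc36a1, Slc38a3 and Slc43a1 (higher with quantile normalization and cyclic loess), Slc38a2 and Slc7a5 (higher with cyclic loess), Slc7a7 (lower with quantile normalization and median centring) and Slc1a2, Slc1a4 and Slc6a8 (lower with median centring). Between the lines 12 did so. Slc6a12 was higher with quantile normalization and cyclic loess and Slc38a2 with cyclic loess, and Slc3a1, Slc6a9, Slc6a13, Slc7a5, Slc7a8, Slc38a4, Slc38a9, Slc38a10, Slc43a2 and Slc43a3 were lower with median centring. No gene gained a call in alb-SREBP-1a against C57Bl6.

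**Figure D2:**
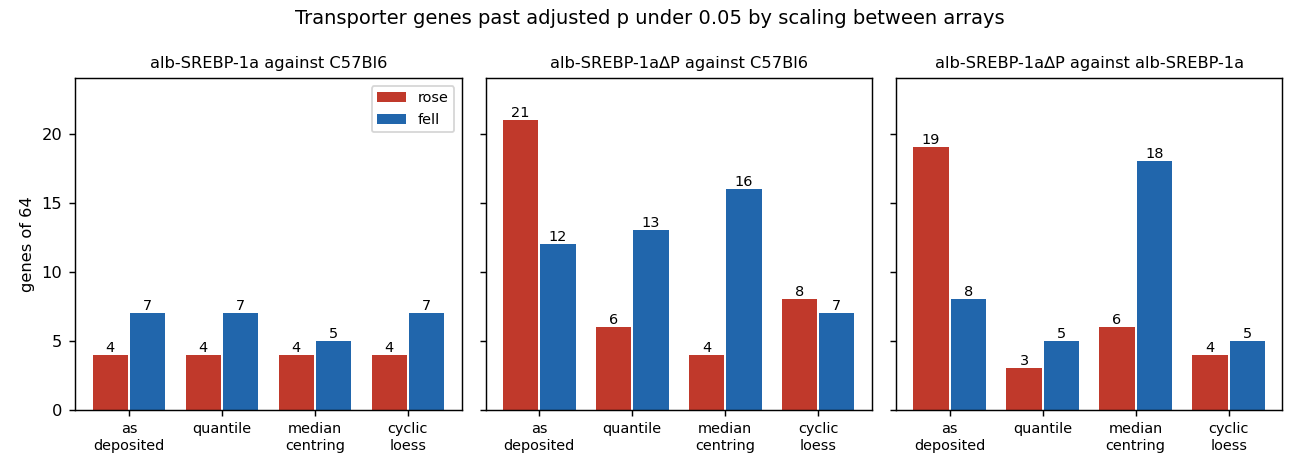
Number of the 64 transporter genes (vertical axis) that rose or fell at an adjusted p under 0.05 in limma, with the deposited values and with 3 other scalings between arrays (horizontal axis), 1 panel per comparison. The bars of alb-SREBP-1a against C57Bl6 stay at 4 rises and 5 to 7 falls, whereas the rises in alb-SREBP-1a∆P against C57Bl6 drop from 21 to between 4 and 8.

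Promoter windows are shown for a chosen few of the genes with at least 1 call that held under every scaling. Other genes met this condition and are not shown. RefSeq windows on GRCm38.p6, each of 300 bases with 250 before and 50 after a transcript start, were used for 47 of the 64 genes, 68 windows in all. Any windows of these genes on 1 chromosome were left out, a limit not applied to the set of all mouse windows. Windows of Slc3a1 (the largest change), of the neighbouring genes Slc6a13 and Slc6a12 (which fell together), of Slc36a1 (which rose in alb-SREBP-1a) and of Slc38a5 (which rose in alb-SREBP-1a∆P) follow, 5′ to 3′ on the strand of the gene, with motif matches in capitals. Slc6a13 has 3 windows and Slc6a12 has 5, of which the first with a match is shown.
Slc3a1, chr17:85028097-85028396, + strand: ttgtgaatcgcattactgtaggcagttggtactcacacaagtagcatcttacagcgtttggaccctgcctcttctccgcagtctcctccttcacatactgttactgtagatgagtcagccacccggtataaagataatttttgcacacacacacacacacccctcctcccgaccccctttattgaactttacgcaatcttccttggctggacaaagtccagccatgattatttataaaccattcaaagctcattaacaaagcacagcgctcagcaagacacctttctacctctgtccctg
Slc6a13, chr6:121303389-121303688, + strand: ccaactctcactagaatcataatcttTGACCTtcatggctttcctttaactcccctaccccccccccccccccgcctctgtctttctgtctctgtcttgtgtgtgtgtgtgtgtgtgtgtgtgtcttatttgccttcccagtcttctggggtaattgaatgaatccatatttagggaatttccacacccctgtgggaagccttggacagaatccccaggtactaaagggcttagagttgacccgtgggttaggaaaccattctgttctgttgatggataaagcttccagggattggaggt
Slc6a12, chr6:121342653-121342952, + strand: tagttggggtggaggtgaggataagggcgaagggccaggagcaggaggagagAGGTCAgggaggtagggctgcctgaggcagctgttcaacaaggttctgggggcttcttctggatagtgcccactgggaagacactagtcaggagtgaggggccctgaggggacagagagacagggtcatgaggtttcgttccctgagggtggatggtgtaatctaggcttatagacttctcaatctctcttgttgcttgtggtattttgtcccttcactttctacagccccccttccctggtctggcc
Slc36a1, chr11:55204090-55204389, + strand: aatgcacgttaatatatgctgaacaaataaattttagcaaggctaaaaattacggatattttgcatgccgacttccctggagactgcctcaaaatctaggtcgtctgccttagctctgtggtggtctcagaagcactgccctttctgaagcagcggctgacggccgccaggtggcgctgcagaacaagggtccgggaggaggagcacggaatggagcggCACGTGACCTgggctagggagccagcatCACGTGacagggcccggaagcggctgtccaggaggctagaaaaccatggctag
Slc38a5, chrX:8271131-8271430, + strand: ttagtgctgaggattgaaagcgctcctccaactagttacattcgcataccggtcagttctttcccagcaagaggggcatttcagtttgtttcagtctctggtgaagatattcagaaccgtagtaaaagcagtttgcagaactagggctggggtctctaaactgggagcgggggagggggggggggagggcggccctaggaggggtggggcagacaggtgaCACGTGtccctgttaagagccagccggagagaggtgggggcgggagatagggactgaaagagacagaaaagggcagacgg
The letters searched on both strands were TCACNCCAC, a form of the sterol regulatory element, the E-box CACGTG, which SREBP proteins can also bind, AGGTCA, a motif of nuclear receptors, and TGATGNAA, a form of the composite element of C/EBP and ATF factors. The first was in 0 of the 68 windows (1.24% of all 32851 mouse windows), the E-box in 9 (7.15%), AGGTCA in 10 (16.3%) and TGATGNAA in 5 (3.97%). In the window of Slc36a1 there are 2 E-boxes, the first of which overlaps an AGGTCA match on the other strand. The Slc38a5 window holds 1 E-box, those of Slc6a13 and Slc6a12 hold 1 AGGTCA each, and the Slc3a1 window holds none of the 4. Genes with an E-box in a window were Slc1a6, Slc1a7, Slc36a1, Slc38a5, Slc38a7, Slc43a1, Slc6a16, Slc6a3 and Slc7a14. A match to letters is no evidence of binding, and a window without a match says only that these letters are not in it.

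The heavy chains of the heteromeric carriers gave the largest change of the families. Slc3a1 encodes the heavy chain that brings the cystine and dibasic amino acid exchanger to the membrane, and its lowest, median and highest log2 levels were 9.38, 10.13 and 10.78 in C57Bl6. They were 8.54, 9.24 and 9.65 in alb-SREBP-1a mice and 8.89, 8.96 and 9.03 in alb-SREBP-1a∆P. All 8 alb-SREBP-1a∆P arrays and 5 of 8 alb-SREBP-1a arrays lay below the lowest C57Bl6 array. Slc3a1 fell by 0.89 ± 0.20 (standard error) in alb-SREBP-1a, 1.86-fold lower (limma, adjusted p = 0.00866), and by 1.12 ± 0.17 in alb-SREBP-1a∆P, 2.18-fold lower (limma, adjusted p = 4.78e-05). Against the median of probe sets of like brightness it was lower by a similar amount, -0.89 and -0.93. The mice of a genotype differed in how much they varied: the standard deviation was 0.49 in C57Bl6, 0.38 in alb-SREBP-1a mice and 0.04 in alb-SREBP-1a∆P. Between the lines the difference of -0.23 ± 0.13 did not pass (adjusted p = 0.167), except after median centring (-0.40, adjusted p = 0.0202).

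Slc3a2 encodes the other heavy chain, the partner of most SLC7 light chains. Its level of 9.68 to 10.11 in C57Bl6 and 9.71 to 9.87 in alb-SREBP-1a (-0.11 ± 0.06, adjusted p = 0.299) compares with 9.18 to 9.77 in alb-SREBP-1a∆P. There it fell by 0.42 ± 0.09 against C57Bl6 (limma, adjusted p = 0.00146) and by 0.31 ± 0.08 against alb-SREBP-1a (limma, adjusted p = 0.00824), with 6 of 8 arrays below the lowest array of the group compared in each case. The fall against C57Bl6 was lost with cyclic loess (-0.19, adjusted p = 0.074), and the fall against alb-SREBP-1a with both quantile normalization (-0.15) and cyclic loess (-0.07).

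Of the 10 light chains, 1 rose in alb-SREBP-1a mice and 5 in alb-SREBP-1a∆P, and none fell against C57Bl6. Only 3 of the 10 are among the brighter genes. Of all dim probe sets 3.61% rose in alb-SREBP-1a mice, and in alb-SREBP-1a∆P 38.8% rose and 2.94% fell. Of the brighter probe sets, which include that of Slc7a8, 9.94% rose in alb-SREBP-1a mice and 15.1% in alb-SREBP-1a∆P. Slc7a8, which exchanges large and small neutral amino acids, had lowest, median and highest levels of 5.86, 6.17 and 6.25 in C57Bl6, 6.50, 6.59 and 6.75 in alb-SREBP-1a mice and 6.17, 6.49 and 6.80 in alb-SREBP-1a∆P. Every alb-SREBP-1a array and 7 of 8 alb-SREBP-1a∆P arrays were above the highest C57Bl6 array. It rose by 0.51 ± 0.07 in alb-SREBP-1a (limma, adjusted p = 0.000225), the largest rise of the 64 genes there, and by 0.40 ± 0.10 in alb-SREBP-1a∆P (limma, adjusted p = 0.00305), a call lost after median centring (0.24). The difference between the lines was -0.12 ± 0.09 (adjusted p = 0.298), and -0.28 after median centring (adjusted p = 0.0282). Slc7a5, the large neutral amino acid exchanger of dividing cells, had values of 0.26 ± 0.09 (adjusted p = 0.0692) and 0.18 ± 0.10 (adjusted p = 0.154) against C57Bl6, the second at 0.32 with cyclic loess (adjusted p = 0.0222). Slc7a7, which exports dibasic amino acids, fell between the lines by 0.23 ± 0.07 (limma, adjusted p = 0.0211), with 5 of 8 alb-SREBP-1a∆P arrays below every alb-SREBP-1a array. That fall held under all 3 scalings. Against C57Bl6 Slc7a7 passed in neither line as deposited, but in alb-SREBP-1a∆P it fell with quantile normalization (-0.27, adjusted p = 0.0219) and median centring (-0.29, adjusted p = 0.00888).

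The remaining light chains called in alb-SREBP-1a∆P have dim probe sets. Slc7a12, which with an unknown heavy chain carries small neutral amino acids, ranged from 2.81 over a median of 2.98 to 3.23 in C57Bl6, from 2.93 over 3.16 to 3.74 in alb-SREBP-1a mice and from 3.20 over 3.47 to 4.29 in alb-SREBP-1a∆P. In alb-SREBP-1a∆P 6 of 8 arrays were above all C57Bl6 arrays, and the rise was 0.54 ± 0.13 (limma, adjusted p = 0.00281). Values of like-dim probe sets moved too, and the excess over their median was 0.17. The rise was lost with quantile normalization (0.20) and cyclic loess (0.18). Slc7a11, the cystine and glutamate exchanger, rose by 0.39 ± 0.12 (adjusted p = 0.0178), Slc7a15 by 0.38 ± 0.12 and Slc7a6, an exchanger of dibasic for neutral amino acids, by 0.32 ± 0.10, and each lost its call under all 3 scalings. Slc7a9, the light chain that pairs with the Slc3a1 product, had values between -0.08 and 0.20 in the 3 comparisons and passed in none.

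Of the 5 cationic amino acid carriers of the SLC7 family, only Slc7a14 was called, a rise in alb-SREBP-1a∆P in each comparison. Of all probe sets 27% rose there against C57Bl6 and 22.8% between the lines. Slc7a2, the cationic carrier best known from hepatocytes, was spread over 10.56 to 11.68 in C57Bl6 but over 10.69 to 10.92 in alb-SREBP-1a mice and 10.54 to 11.05 in alb-SREBP-1a∆P. Its differences of -0.31 ± 0.16 and -0.29 ± 0.17 from C57Bl6 did not pass (adjusted p = 0.23 and 0.16). Slc7a1, the widespread carrier for arginine and lysine, stood at -0.08 ± 0.12 and 0.17 ± 0.12. Slc7a14 rose by 0.38 ± 0.09 against C57Bl6 (limma, adjusted p = 0.00259) and by 0.42 ± 0.08 against alb-SREBP-1a (limma, adjusted p = 0.00111), with all 8 alb-SREBP-1a∆P arrays above every alb-SREBP-1a array, and both calls were kept with median centring only.

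Of the 11 sodium-coupled neutral carriers of the SLC38 family, 4 fell and 0 rose in alb-SREBP-1a mice, and 5 fell and 2 rose in alb-SREBP-1a∆P. Of these genes 8 are among the brighter, of whose probe sets 7.1% fell in alb-SREBP-1a mice and 37.5% in alb-SREBP-1a∆P over the whole array, and the counts include Slc38a9, whose probe sets disagree. Slc38a4, a carrier of neutral and cationic amino acids abundant in liver, covered 12.32 to 12.66 in C57Bl6, 12.00 to 12.38 in alb-SREBP-1a mice and 11.91 to 12.12 in alb-SREBP-1a∆P. In alb-SREBP-1a∆P every array was below the C57Bl6 arrays and in alb-SREBP-1a 7 of 8 were. The falls were 0.34 ± 0.07 (limma, adjusted p = 0.00534) and 0.48 ± 0.07 (limma, adjusted p = 4.74e-05), and both held under each scaling. Slc38a3, the glutamine carrier of hepatocytes that works in both directions, did not pass in any comparison as deposited, at 0.13 ± 0.08, 0.17 ± 0.08 and 0.04 ± 0.06, but in alb-SREBP-1a∆P against C57Bl6 it rose with quantile normalization (0.23, adjusted p = 0.043) and cyclic loess (0.27, adjusted p = 0.0183). Slc38a2, the carrier of small neutral amino acids that amino acid shortage induces, did not pass either, at 0.09 ± 0.12 and 0.19 ± 0.14 against C57Bl6, except in alb-SREBP-1a∆P with cyclic loess (0.42, adjusted p = 0.0256).

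Slc38a6, a carrier of which less is known, had levels of 6.27, 6.49 and 6.77 in C57Bl6, 6.01, 6.26 and 6.38 in alb-SREBP-1a mice and 5.62, 5.96 and 6.21 in alb-SREBP-1a∆P (lowest, median and highest). Its groups ran in that order, with 5 of 8 alb-SREBP-1a arrays and all alb-SREBP-1a∆P arrays below every C57Bl6 array. It fell by 0.24 ± 0.07 in alb-SREBP-1a (limma, adjusted p = 0.0435, lost after median centring at 0.0753), by 0.53 ± 0.09 in alb-SREBP-1a∆P (limma, adjusted p = 0.000161) and by 0.29 ± 0.08 between the lines (limma, adjusted p = 0.0123). Slc38a7, a lysosomal exporter of glutamine, ran from 7.49 over 7.67 to 7.84 in C57Bl6, from 7.37 over 7.51 to 7.86 in alb-SREBP-1a mice and from 6.55 over 7.24 to 7.45 in alb-SREBP-1a∆P. The alb-SREBP-1a∆P arrays were all below the C57Bl6 arrays. It fell there by 0.55 ± 0.12 (limma, adjusted p = 0.00155) but in alb-SREBP-1a was at -0.11 ± 0.08 (adjusted p = 0.407). Its fall between the lines, 0.44 ± 0.13, was lost with quantile normalization (-0.29) and cyclic loess (-0.18).

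Slc38a5, a glutamine carrier of the same kind as Slc38a3, was the opposite case. It spanned 5.40 to 5.71 in C57Bl6, 5.22 to 5.78 in alb-SREBP-1a mice and 5.69 to 6.24 in alb-SREBP-1a∆P, where 7 of 8 arrays were above every array of either other group. The rise was 0.42 ± 0.09 against C57Bl6 (limma, adjusted p = 0.000979) and 0.48 ± 0.10 against alb-SREBP-1a (limma, adjusted p = 0.00148), 0.30, 0.26 and 0.33 against C57Bl6 under the 3 scalings. Slc38a10 fell by 0.24 ± 0.06 and 0.44 ± 0.08 against C57Bl6, with all 8 arrays of each line below the C57Bl6 arrays, and its fall in alb-SREBP-1a∆P was lost with cyclic loess (-0.18). Slc38a9, the lysosomal arginine sensor of mTORC1, fell by 0.32 ± 0.09 and 0.48 ± 0.11 on its brighter probe set, but its probe sets disagree: on the dimmer one the values were -0.19 ± 0.07 (adjusted p = 0.0757) in alb-SREBP-1a mice and 0.34 ± 0.10, a rise, in alb-SREBP-1a∆P (limma, adjusted p = 0.00963). The falls on the brighter probe set were lost after median centring in alb-SREBP-1a (adjusted p = 0.0648) and with cyclic loess in alb-SREBP-1a∆P (adjusted p = 0.0653). No direction can be given for Slc38a9 in alb-SREBP-1a∆P. Slc38a11 rose by 0.29 ± 0.11 in alb-SREBP-1a∆P (adjusted p = 0.0479), turned to -0.027 with quantile normalization and -0.032 with cyclic loess, and missed the threshold without replicate 4 (0.26, adjusted p = 0.0829).

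**Figure D3:**
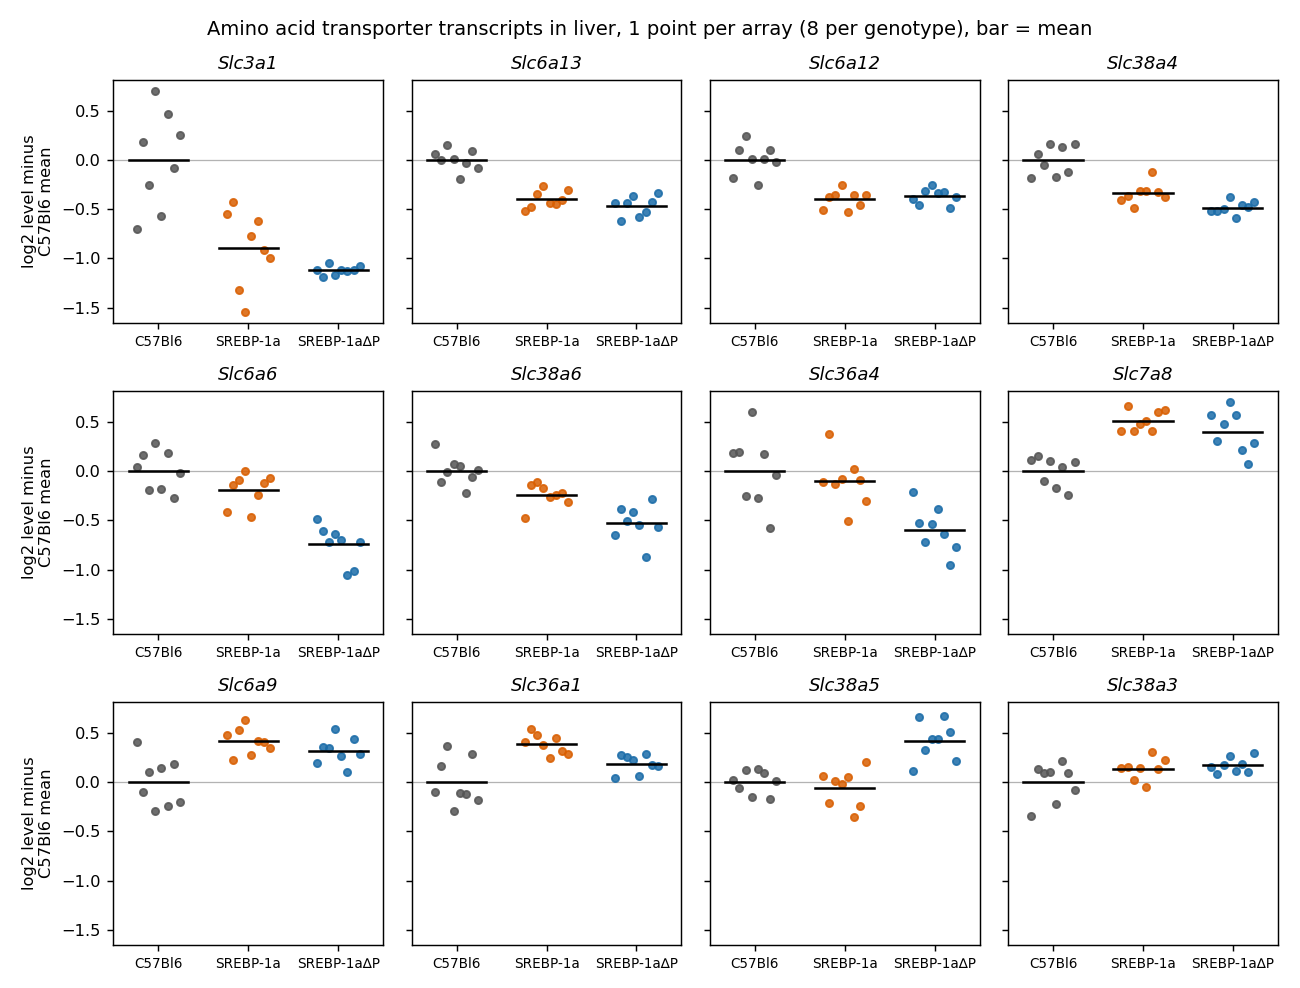
Log2 level of 12 transporter genes minus their C57Bl6 mean (vertical axis), 1 point per array with 8 arrays in each genotype (horizontal axis) and a bar at the group mean. Slc6a13 and Slc6a12 drop together in both lines, Slc6a6 and Slc36a4 drop in alb-SREBP-1a∆P, Slc38a5 is raised in alb-SREBP-1a∆P, and the alb-SREBP-1a∆P arrays of Slc3a1 lie within 8.89 to 9.03 on the log2 scale while C57Bl6 covers 9.38 to 10.78.

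The SLC1 carriers of glutamate and small neutral amino acids gave no call in alb-SREBP-1a, and 2 of 7 rose in alb-SREBP-1a∆P in each comparison. Slc1a2, the glutamate carrier of perivenous hepatocytes, did not pass, at -0.05 ± 0.08 and -0.10 ± 0.09 against C57Bl6, except in alb-SREBP-1a∆P after median centring (-0.26, adjusted p = 0.0456). Slc1a5 and Slc1a4, which exchange small neutral amino acids, had values within -0.17 to 0.16 in the 3 comparisons and passed in none as deposited, although after median centring Slc1a4 fell in alb-SREBP-1a∆P against C57Bl6 (-0.33, adjusted p = 0.0109). Slc1a1, the glutamate carrier of kidney and neurons, had levels of 4.73, 4.90 and 5.14 in C57Bl6, 4.60, 4.78 and 5.48 in alb-SREBP-1a mice and 5.05, 5.40 and 5.91 in alb-SREBP-1a∆P. Of the alb-SREBP-1a∆P arrays 7 were above every C57Bl6 array but only 3 above the highest alb-SREBP-1a array, replicate 5. Slc1a1 rose by 0.50 ± 0.11 against C57Bl6 (limma, adjusted p = 0.00187) and by 0.56 ± 0.14 against alb-SREBP-1a (limma, adjusted p = 0.00407), and of the scalings only median centring kept either call. Slc1a3, the glial glutamate carrier, rose by 0.39 ± 0.12 and 0.43 ± 0.10 in the same comparisons, the first lost under all 3 scalings and the second with quantile normalization (0.22, adjusted p = 0.1) and cyclic loess (0.22, adjusted p = 0.0861).

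Of the 11 SLC6 carriers of transmitters, osmolytes and creatine, in alb-SREBP-1a∆P 5 rose against C57Bl6, 3 fell and 3 did not pass, and those that fell are all among the brighter genes. Of those that rose, Slc6a9 and Slc6a3 are also among the brighter. In this comparison 37.5% of all brighter probe sets fell and 15.1% rose, and 38.8% of all dim ones rose. Slc6a13, which carries GABA and taurine into hepatocytes, covered 11.02 to 11.37 in C57Bl6, 10.70 to 10.95 in alb-SREBP-1a mice and 10.59 to 10.88 in alb-SREBP-1a∆P. Every array of either line was below every C57Bl6 array. It fell by 0.40 ± 0.06 (limma, adjusted p = 0.000545) and 0.47 ± 0.07 (limma, adjusted p = 4.26e-05). Slc6a12, its neighbour on chromosome 6 and the carrier of betaine, spanned 9.94 to 10.44 in C57Bl6, 9.66 to 9.93 in alb-SREBP-1a mice and 9.71 to 9.94 in alb-SREBP-1a∆P. The falls were 0.40 ± 0.07 (limma, adjusted p = 0.00176) and 0.37 ± 0.07 (limma, adjusted p = 0.000794), of which the second was lost with cyclic loess (-0.15, adjusted p = 0.153). Neither gene passed between the lines as deposited, at -0.07 ± 0.06 for Slc6a13 and 0.03 ± 0.06 for Slc6a12. With other scalings Slc6a13 was lower after median centring (-0.23, adjusted p = 0.0153), and Slc6a12 was higher with quantile normalization (0.18, adjusted p = 0.0318) and cyclic loess (0.26, adjusted p = 0.00539).

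Slc6a6, the taurine carrier, separated alb-SREBP-1a∆P from both other genotypes. Its lowest, median and highest levels were 8.83, 9.12 and 9.39 in C57Bl6, 8.64, 8.98 and 9.11 in alb-SREBP-1a mice and 8.05, 8.39 and 8.62 in alb-SREBP-1a∆P, and no alb-SREBP-1a∆P array overlapped with another group. It fell by 0.75 ± 0.10 against C57Bl6, 1.68-fold lower (limma, adjusted p = 2.64e-05), and by 0.55 ± 0.10 against alb-SREBP-1a, 1.47-fold lower (limma, adjusted p = 0.000509). These calls held under each scaling, with -0.57, -0.91 and -0.49 against C57Bl6. In alb-SREBP-1a it stood at -0.19 ± 0.09 (adjusted p = 0.223). Slc6a9, a glycine carrier, rose in both lines, by 0.42 ± 0.10 (limma, adjusted p = 0.0118) and 0.32 ± 0.10 (limma, adjusted p = 0.0187), and the second value became 0.50 with quantile normalization, 0.15 with median centring, where the call was lost, and 0.58 with cyclic loess. Slc6a8, the creatine carrier, did not pass (-0.15 ± 0.07 and -0.11 ± 0.07), except in alb-SREBP-1a∆P after median centring (-0.27, adjusted p = 0.014). The carriers of dopamine (Slc6a3), serotonin (Slc6a4), glycine in neurons (Slc6a5) and GABA (Slc6a11) rose by 0.23 to 0.40 in alb-SREBP-1a∆P against C57Bl6, and each of these 4 calls was lost under all 3 scalings.

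The 9 amino acid and orphan carriers of SLC6 have mostly dim probe sets in liver. None of them fell, and 1 rose in alb-SREBP-1a mice, 3 in alb-SREBP-1a∆P against C57Bl6 and 5 between the lines. The shares of all dim probe sets that rose in these comparisons were 3.61%, 38.8% and 33%. Slc6a16, an orphan, rose by 0.39 ± 0.08 in alb-SREBP-1a (limma, adjusted p = 0.00435), with all 8 arrays above every C57Bl6 array and the call kept under each scaling, and by 0.41 ± 0.11 in alb-SREBP-1a∆P (limma, adjusted p = 0.00646), where each scaling removed it. Slc6a18, a kidney carrier of neutral amino acids, ran from 4.88 over 5.22 to 5.41 in C57Bl6, from 4.58 over 4.88 to 5.29 in alb-SREBP-1a mice and from 5.16 over 5.46 to 5.67 in alb-SREBP-1a∆P. The groups overlap, although 6 of 8 alb-SREBP-1a∆P arrays were above every alb-SREBP-1a array. The rise was 0.51 ± 0.11 between the lines (limma, adjusted p = 0.00213) and 0.28 ± 0.10 against C57Bl6 (limma, adjusted p = 0.0273), the first kept with median centring and the second under no scaling. Slc6a19, the main neutral amino acid carrier of intestine and kidney, and Slc6a20a, a proline carrier, did not pass against C57Bl6 in either line.

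Of the proton-coupled SLC36 carriers, Slc36a1 and Slc36a4 behaved differently. Slc36a1, which exports small amino acids from lysosomes, spanned 7.65 to 8.31 in C57Bl6, 8.19 to 8.48 in alb-SREBP-1a mice and 7.98 to 8.23 in alb-SREBP-1a∆P. It rose in alb-SREBP-1a by 0.39 ± 0.09 (limma, adjusted p = 0.0122), was at 0.19 ± 0.10 in alb-SREBP-1a∆P (adjusted p = 0.116; 0.37 with quantile normalization and 0.45 with cyclic loess, adjusted p = 0.0148 and 0.00472), and between the lines fell by 0.20 ± 0.07 (limma, adjusted p = 0.0196), a difference that turned to 0.013 with quantile normalization and 0.085 with cyclic loess. Slc36a4, a carrier of proline and tryptophan, had levels of 6.23, 6.88 and 7.41 in C57Bl6, 6.30, 6.71 and 7.19 in alb-SREBP-1a mice and 5.86, 6.23 and 6.60 in alb-SREBP-1a∆P. All groups overlap, with 4 and 6 of 8 alb-SREBP-1a∆P arrays below every C57Bl6 and every alb-SREBP-1a array. It fell by 0.59 ± 0.15 against C57Bl6 (limma, adjusted p = 0.00342) and by 0.49 ± 0.12 against alb-SREBP-1a (limma, adjusted p = 0.0044), both under each scaling too. Slc36a2 and Slc36a3, dim genes, rose by 0.30 ± 0.10 and 0.39 ± 0.12 against C57Bl6 and lost the call under each scaling.

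None of the 3 SLC43 genes passed against C57Bl6 in either line as deposited, but Slc43a1 rose in alb-SREBP-1a∆P with quantile normalization (0.37, adjusted p = 0.0428) and cyclic loess (0.44, adjusted p = 0.0151). Slc43a1, a facilitated carrier of branched-chain amino acids, rose between the lines by 0.27 ± 0.10 (limma, adjusted p = 0.0375), a call lost after median centring (0.10) and without replicate 4 (adjusted p = 0.0536). Slc43a3, which carries nucleobases rather than amino acids, had values within -0.10 to 0.06, and between the lines was lower after median centring (-0.27, adjusted p = 0.028). Of the opposite-strand genes, Slc7a6os fell in alb-SREBP-1a∆P by 0.33 ± 0.09 against C57Bl6, a call lost with cyclic loess, and by 0.39 ± 0.09 against alb-SREBP-1a (limma, adjusted p = 0.00209). Its partner Slc7a6 rose against C57Bl6 as deposited, a call lost under all 3 scalings.

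**Figure D4:**
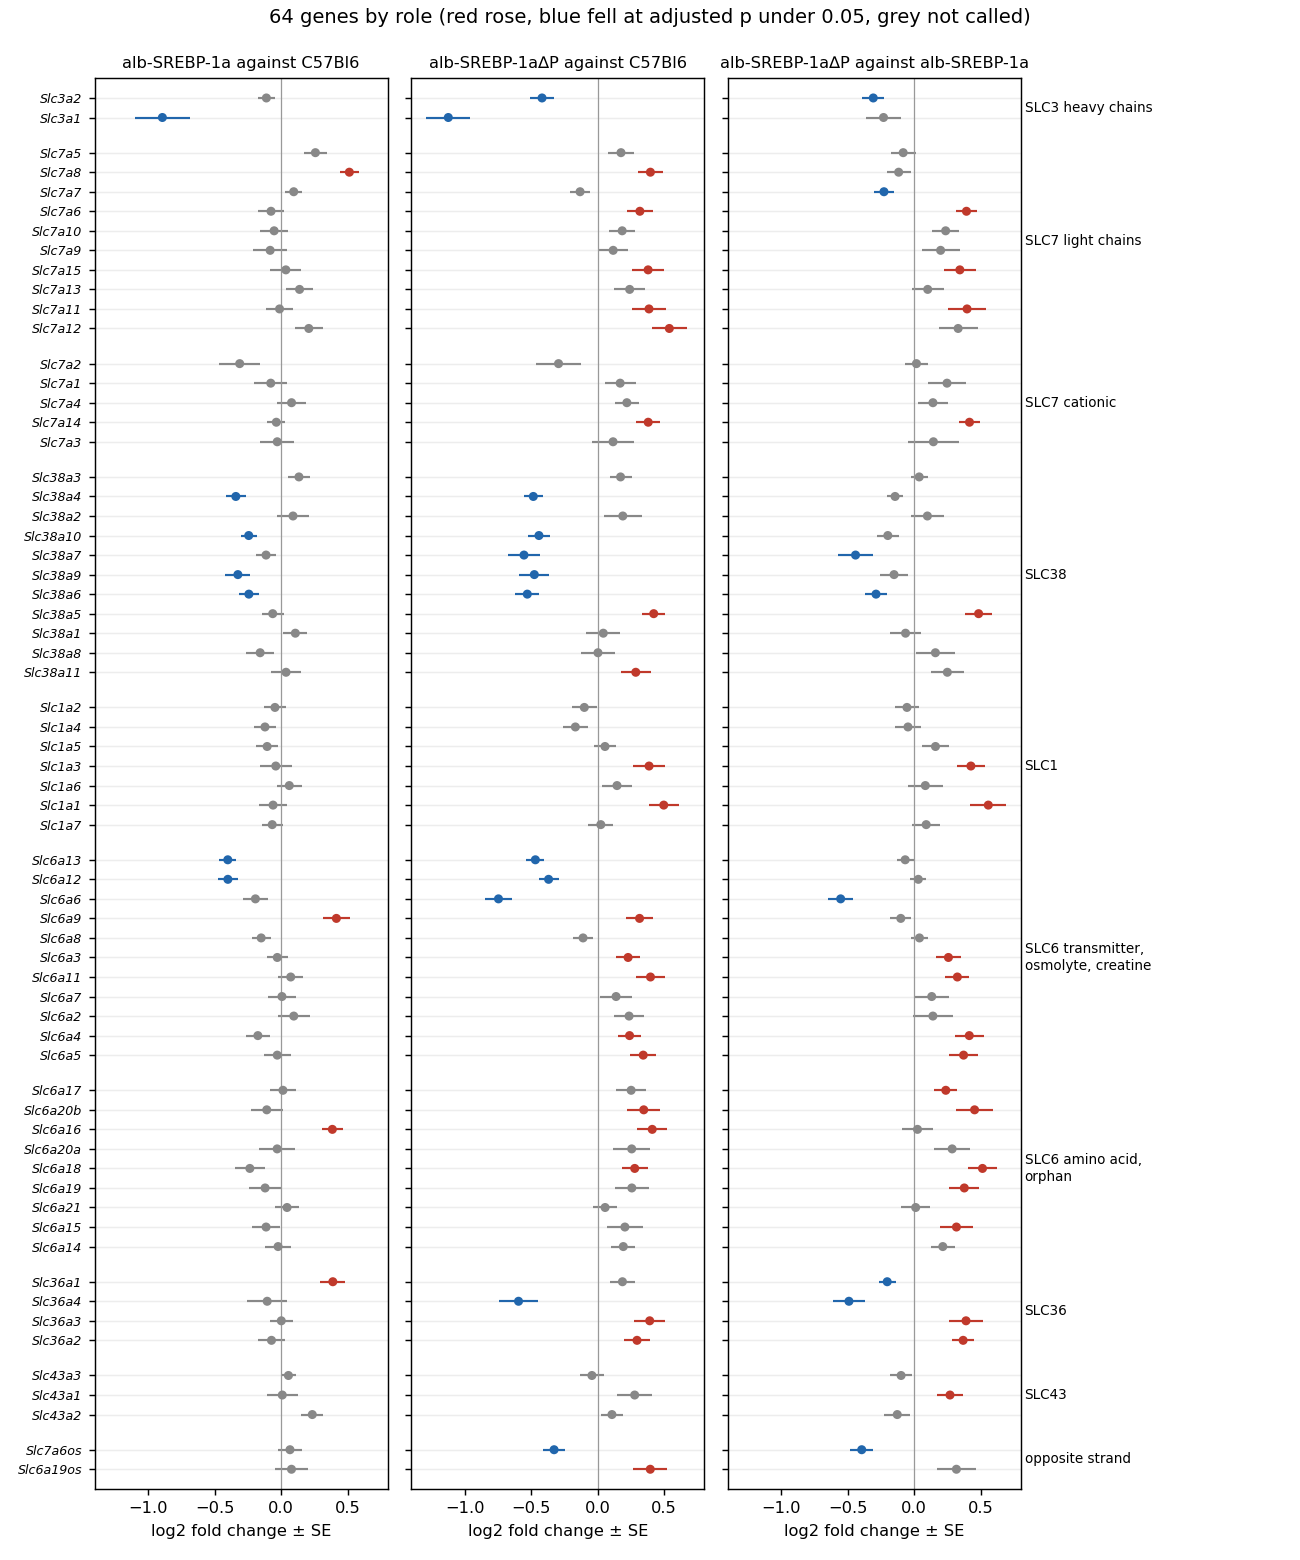
Log2 fold change with its standard error (horizontal axis) of the 64 transporter genes, grouped by family and role (vertical axis), 1 panel per comparison, red for a rise, blue for a fall and grey for genes that did not pass. Coloured points are few in alb-SREBP-1a (4 red, 7 blue) and many in alb-SREBP-1a∆P against C57Bl6 (21 red, 12 blue), with Slc3a1 farthest to the left in both.

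Of 33 measured genes of lysosomal amino acid sensing and mTORC1, 2 rose and 1 fell in alb-SREBP-1a, 0 rose and 19 fell in alb-SREBP-1a∆P against C57Bl6, and 1 rose and 18 fell between the lines. Only 6 and 4 of those falls held under all 3 scalings, and the list median of -0.24 against C57Bl6 became -0.19, -0.40 and -0.10. Rheb, the GTPase that activates mTORC1, fell by 0.51 ± 0.11 in alb-SREBP-1a (limma, adjusted p = 0.00478) and by 1.08 ± 0.10 in alb-SREBP-1a∆P (limma, adjusted p = 7.18e-07). Seh1l, of the GATOR complex upstream, fell by 0.70 ± 0.11 and the leucyl-tRNA synthetase Lars by 0.42 ± 0.07 in alb-SREBP-1a∆P. In alb-SREBP-1a the arginine sensor Castor2 rose by 0.47 ± 0.10 and Tsc2, an inhibitor of Rheb, by 0.33 ± 0.07. Between the lines Lamtor5 fell by 0.51 ± 0.09, Nprl2 by 0.38 ± 0.07 and Rraga by 0.60 ± 0.11. Here the calls of Lamtor5 and Nprl2 held under 2 of the 3 scalings and that of Rraga under all 3. Of the 33 genes 30 lie among the brighter probe sets, of which 37.5% fell in alb-SREBP-1a∆P against C57Bl6 and 40.2% between the lines over the whole array.

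The amino acid response of GCN2 and ATF4, which induces several transporter genes when amino acids run short, showed no single direction over 20 measured genes: 3 rose and 2 fell in alb-SREBP-1a, 7 rose and 5 fell in alb-SREBP-1a∆P against C57Bl6, and 2 rose and 2 fell between the lines. Under all 3 scalings 2 of these 7 rises and 1 of these 5 falls against C57Bl6 held in alb-SREBP-1a∆P, and 1 rise and 1 fall between the lines. The list median against C57Bl6 in alb-SREBP-1a∆P, 0.11, became -0.05 after median centring. Of the 20 genes 16 lie among the brighter probe sets. Of the brighter probe sets over the whole array 9.94% rose and 7.1% fell in alb-SREBP-1a mice. In alb-SREBP-1a∆P 15.1% of them rose and 37.5% fell against C57Bl6, and 12.6% rose and 40.2% fell between the lines. Chac1, which breaks down glutathione, rose by 0.46 ± 0.09 in alb-SREBP-1a (limma, adjusted p = 0.0031) and by 0.69 ± 0.10 in alb-SREBP-1a∆P (limma, adjusted p = 5.57e-05). Ppp1r15a rose by 0.40 ± 0.09 and Gpt2, an alanine aminotransferase, fell by 0.28 ± 0.07 in alb-SREBP-1a mice. In alb-SREBP-1a∆P Phgdh, the first enzyme of serine synthesis, rose by 0.51 ± 0.11 against C57Bl6 and by 0.92 ± 0.16 against alb-SREBP-1a, and Vldlr rose by 0.34 ± 0.06 against C57Bl6. Atf4 itself fell by 0.46 ± 0.08 between the lines and Eif2ak4, which encodes GCN2, by 0.32 ± 0.07. The call of Vldlr held under 1 of the 3 scalings, and those of Gpt2 in alb-SREBP-1a mice and of Atf4 between the lines under 2.

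Other amino acid and peptide carriers with their partners, 13 measured genes, gave 1 rise and 1 fall in alb-SREBP-1a mice, 1 and 4 in alb-SREBP-1a∆P and 0 and 3 between the lines. Of all probe sets 6.77% rose and 3.98% fell in alb-SREBP-1a mice, and 27% and 20.2% in alb-SREBP-1a∆P. Between the lines 22.8% rose and 21.4% fell, and 7 of the 13 genes are among the brighter. Slc16a10, which releases aromatic amino acids, fell in both lines by 0.43 ± 0.10 and 0.45 ± 0.10, the second lost under 1 of the 3 scalings. Slc15a3, a lysosomal histidine and peptide carrier of macrophages, rose in alb-SREBP-1a by 0.51 ± 0.08 and fell between the lines by 0.48 ± 0.14. The lysosomal cystine carrier Ctns fell by 0.42 ± 0.14 in alb-SREBP-1a∆P, and the vesicular glutamate carrier Slc17a8 by 0.76 ± 0.16. Both also fell between the lines, by 0.36 ± 0.10 and 0.63 ± 0.18. The call of Ctns held under 1 of the 3 scalings in each of these comparisons, and between the lines Slc15a3 held under 1 and Slc17a8 under 2.

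Amino acid uptake differs along the liver lobule, and the zonal lists did not move alike. Of 7 measured periportal genes 3 fell in alb-SREBP-1a mice and 5 in alb-SREBP-1a∆P, none rose, and the list medians were -0.32 and -0.51. All of these falls held under each scaling. The 7 genes all lie among the brighter probe sets, of which 7.1% fell in alb-SREBP-1a mice and 37.5% in alb-SREBP-1a∆P over the whole array. Cdh1 fell by 0.69 ± 0.13 and 0.75 ± 0.16, Hal, which breaks down histidine, by 0.44 ± 0.09 and 0.71 ± 0.10, and Cps1, which starts the urea cycle, by 0.29 ± 0.07 and 0.44 ± 0.07. Ctsc, a lysosomal protease, fell by 0.71 ± 0.10 in alb-SREBP-1a∆P against C57Bl6 and by 0.41 ± 0.10 between the lines, the second held under 1 of the 3 scalings. Of 9 pericentral genes, also all among the brighter, 2 rose and 0 fell in alb-SREBP-1a, and 1 rose and 1 fell in alb-SREBP-1a∆P. Under all 3 scalings 1 of the 2 rises in alb-SREBP-1a held, and in alb-SREBP-1a∆P the fall held but the rise did not. Glul, which makes glutamine, rose by 0.53 ± 0.16 and 0.38 ± 0.15, and Oat, which degrades ornithine, fell by 0.46 ± 0.10 in alb-SREBP-1a∆P. Lgr5 rose by 0.37 ± 0.10 in alb-SREBP-1a mice and fell by 0.54 ± 0.11 between the lines. The part of zonal composition in the transporter results was not tested.

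Markers of other cell types moved beside the transporter genes. Of 8 macrophage and Kupffer cell markers 5 rose in alb-SREBP-1a mice and 4 in alb-SREBP-1a∆P, with mean levels of 7.23 to 7.72 in C57Bl6, 7.55 to 8.24 in alb-SREBP-1a mice and 7.48 to 8.11 in alb-SREBP-1a∆P, led by Cd68 at 0.78 ± 0.10 and 0.58 ± 0.12. Under all 3 scalings 5 of these rises held in alb-SREBP-1a mice and 1 in alb-SREBP-1a∆P, where the list median of 0.24 became 0.08 after median centring. All 8 lie among the brighter probe sets, of which 9.94% rose in alb-SREBP-1a mice and 15.1% in alb-SREBP-1a∆P over the whole array. Neutrophil markers (5 of 7) and adipocyte markers (4 of 6) rose in alb-SREBP-1a∆P against C57Bl6, and 0 of these 9 calls held under all 3 scalings. Their mean levels were 4.81 to 5.15 against 5.13 to 5.44 for neutrophil and 4.71 to 4.94 against 5.04 to 5.19 for adipocyte markers, led by S100a9 at 0.49 ± 0.14 and Adipoq at 0.61 ± 0.13, and most of these probe sets are as dim as those of the transporter genes that rose there. Of all dim probe sets 38.8% rose in that comparison. Of 8 hepatocyte markers 2 fell in alb-SREBP-1a mice and 5 in alb-SREBP-1a∆P, with Tat, which degrades tyrosine, at -0.75 ± 0.10 and -0.77 ± 0.10. Under all 3 scalings 2 of these falls held in alb-SREBP-1a mice and 2 in alb-SREBP-1a∆P. In each line they were those of Tat and Cps1, and Cps1 was already counted in the periportal list. All 8 hepatocyte markers are among the brighter probe sets, of which 37.5% fell in alb-SREBP-1a∆P over the whole array. Sinusoidal endothelial markers gave 2 rises and 0 falls in alb-SREBP-1a mice (Cdh5 at 0.39 ± 0.07), 1 and 2 in alb-SREBP-1a∆P (Clec4g at -0.54 ± 0.11), and 0 and 5 of 8 between the lines (Fcgr2b at -0.37 ± 0.09). Between the lines 3 macrophage markers fell and 5 neutrophil and 3 adipocyte markers rose. Over the whole array 40.2% of the brighter probe sets fell between the lines, and 33% of the dim ones rose. The 8 endothelial markers are all among the brighter. For the 7 lymphocyte markers 1 rose in each line, with Cd3g at 0.37 ± 0.10 in alb-SREBP-1a mice and Cd3e at 0.32 ± 0.11 in alb-SREBP-1a∆P. The 8 stellate cell markers gave no call against C57Bl6, and between the lines 1 rise and 2 falls (Lrat at -0.31 ± 0.10). Of 5 cholangiocyte markers none passed, with Krt19 at -0.17 ± 0.10 in alb-SREBP-1a. Of 3 erythroid markers only Epb42, which is dim, rose in alb-SREBP-1a∆P against C57Bl6, by 0.37 ± 0.13. Alas2 at -0.19 ± 0.08 and Slc4a1 at 0.13 ± 0.09 did not pass there (limma, adjusted p = 0.062 and 0.211). Of all probe sets 6.77% rose in alb-SREBP-1a mice and 27% in alb-SREBP-1a∆P against C57Bl6. Under all 3 scalings 0 of the calls between the lines held in any of these marker lists. Against C57Bl6, 0 of the lymphocyte and erythroid calls held under all 3. Of the endothelial calls 1 rise in alb-SREBP-1a mice and 1 fall in alb-SREBP-1a∆P did. The part of these cell types in the transporter results was not tested.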

How the data were processed

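Liver RNA of 24 mice (150 ng per array) was hybridised to Affymetrix Mouse Gene ST 1.0 arrays. The authors computed the deposited log2 values by RMA in Expression Console 1.1. Not given in the sources used here are other RMA settings and the build of the array annotation. The deposited table covers 35556 probe sets, of which 21789 have 1 gene symbol, 1621 have several and 12146 have none. Chromosomes and promoter windows come from RefSeq (GRCm38.p6). The members and the gene lists were chosen with earlier results of these data known.

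Pairs of genotypes were compared by limma 3.58.1 (R 4.3.3) on 8 against 8 arrays, with Benjamini-Hochberg adjustment over all probe sets and a two-sided call at an adjusted p under 0.05. The tests were checked on simulated data. Genes with a call and an absolute log2 fold change of at least 0.5 in a comparison were described in full, and the others by counts, ranges or single values. Of the other gene lists, up to 3 genes per comparison with the smallest p were named, and of the marker lists those of largest change. Tried as alternatives were a joint fit of all 24 arrays, a block on the replicate number, 3 scalings (quantile normalization, median centring and cyclic loess), a test restricted to the brighter probe sets, the mean over a gene's probe sets and the methods' t-test. Leaving out alb-SREBP-1a∆P replicate 4 was added after seeing the data. Motifs were searched with Python 3.11.15 and pandas 2.3.3, and figures were drawn with matplotlib 3.10.9 and numpy 2.4.6. All p-values rest on the spread between these mice, and the number of arrays limits the precision.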

Additional observations from a re-analysis of the deposited data

Results flagged for a closer look

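Of 192 groups of 8 arrays (64 genes in 3 genotypes), 10 had 1 array far from the other 7, by its gap to the nearest array over the group's range (Dixon's test), and chance gives about 1 in 20 groups. These were 1 group in C57Bl6, 5 in alb-SREBP-1a mice and 4 in alb-SREBP-1a∆P, and most concern dim probe sets. In C57Bl6, replicate 4 had the lowest Slc6a16 level at 5.01, next to 5.25. In alb-SREBP-1a, replicate 5 had the highest levels of Slc1a1 at 5.48 (next 4.93) and of Slc6a15 at 4.43 (next 4.14), replicate 1 had the highest Slc7a5 level at 7.16 (next 6.90), replicate 4 the highest Slc7a13 level at 4.61 (next 4.21) and replicate 2 the lowest Slc1a6 level at 4.64 (next 5.08). In alb-SREBP-1a∆P, replicate 4 had the lowest Slc6a19os level at 4.62 (next 5.32) and the highest Slc7a12 level at 4.29 (next 3.62), replicate 2 the lowest Slc6a2 level at 4.84 (next 5.32) and replicate 3 the lowest Slc6a14 level at 3.76 (next 4.05). Without alb-SREBP-1a∆P replicate 4, the difference of Slc6a19os between the lines passed the test at 0.42 (limma, adjusted p = 0.0103).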

How the results depend on the processing

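Scaling between arrays moved the counts of transporter genes most. In alb-SREBP-1a∆P against C57Bl6, 21 genes rose as deposited, 6 with quantile normalization, 4 with median centring, 8 with cyclic loess and 6 when dim probe sets were removed, where the dim genes were no longer tested, and the 12 falls became 7 with cyclic loess. Between the lines the 19 rises became 3, 6, 4 and 5 in that order, and the 8 falls became 5 with quantile normalization, 18 with median centring and 5 with cyclic loess. Directions turned for Slc38a11 in alb-SREBP-1a∆P against C57Bl6 (-0.027 with quantile normalization and -0.032 with cyclic loess), for Slc36a1 between the lines (0.013 and 0.085) and for Slc38a9 between the lines when its probe sets were averaged (0.19, adjusted p = 0.0359). The cause was not tested. Counts in alb-SREBP-1a against C57Bl6 stayed within 1.5 times under all alternatives run. Replicate numbers did not pair the mice (correlations of deviations from -0.12 to 0.28), and the fit with a replicate block gave 4 rises and 5 falls in alb-SREBP-1a mice, 20 and 12 in alb-SREBP-1a∆P and 14 and 7 between the lines. With the number as a guide, 2, 3 and 2 of 8 arrays correlated best with their own number. Without alb-SREBP-1a∆P replicate 4 the counts were 21 and 12 against C57Bl6 and 16 and 8 between the lines, where Slc43a1, Slc6a17, Slc6a15 and Slc7a11 lost their call. The methods' t-test after Benjamini-Hochberg adjustment gave 4 and 7, 20 and 12, and 18 and 10.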
